A study of Drosophila melanogaster with 3 samples.

Results

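Binding of a tagged Pif1B protein was described at 30 genes of synapse and neuronal function in the fruit fly Drosophila melanogaster, out of 13945 protein-coding genes on the chromosome arms. The genes are a list of names grouped by what they do in neurons, and all 30 had an entry in the Ensembl annotation of the BDGP6 assembly. The rule used no measured value, but the list was chosen with earlier results of these data known. The flies carried Pif1B fused at its C-terminal end to green fluorescent protein. Chromatin of whole pupae, with male and female animals pooled, was immunoprecipitated with an antibody against that protein and sequenced, an assay called ChIP-seq. The 3 biological replicates form a single group, with no other stage, genotype or treatment beside it. The exact age of the pupae, the promoter that drove the fusion and the number of pooled animals were not stated, and no untagged strain was analysed here.

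These genes carry out chemical signalling between neurons. Vesicles filled with transmitter are docked at the active zone of a nerve terminal, calcium enters through voltage-gated channels when an impulse arrives, synaptotagmins sense it, and SNARE proteins fuse the vesicle with the membrane. Potassium channels end the impulse, and pumps and transporters refill the vesicles. During metamorphosis much of the larval nervous system is remodelled while adult circuits are built. Neurons are one of many cell types in a whole pupa, and binding in few cells cannot be told apart from weak binding in many.

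A peak was assigned to a gene when its summit lay inside the gene or within 2 kb of it. Peaks called at a start had a summit no more than 500 bp from an annotated transcription start of that gene. Peaks are those of the authors' list that passed the irreproducible discovery rate (IDR), which held 6410 peaks with signal values of 83.2 or more. The signal of a region, as the authors deposited it, serves here to order regions within a list. A longer list of 29999 relaxed regions, called on the pooled replicates, holds these peaks and weaker regions. Only such lists were analysed, so sequencing depth is unknown. The rank of a region in a replicate is that of the strongest region of that replicate overlapping it by at least 1 bp. Coordinates are in dm6.

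The sequences at the summits are shown for the member peaks that could be printed and for the region that came closest to the list without entering it, since the letters differ between these sites. Each line is the 101 bp centred on a summit, 5′ to 3′ on the plus strand, from the RefSeq copy of the assembly. Capitals mark matches on either strand to 10 short motifs, which may overlap. They are the TATA box (TATAAA), the A run (AAAAAA), the homeodomain core (TAATTA), the GATA site (AGATAA), the GAGA core (GAGAG), the CA repeat (CACACA), an E-box with CG in its middle (CACGTG), an E-box with GC in its middle (CAGCTG), the GC box (GGGCGG) and the DRE core (TATCGATA).

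Syn, later intron, chr3R:10213595-10213695: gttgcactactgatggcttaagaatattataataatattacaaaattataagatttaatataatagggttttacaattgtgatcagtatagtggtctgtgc
Syx1A, 697 bp upstream of its start, chr3R:24106410-24106510: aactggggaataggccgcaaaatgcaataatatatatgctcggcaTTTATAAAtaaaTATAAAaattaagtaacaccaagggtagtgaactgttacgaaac
Nrx-1, 86 bp from a start, chr3R:22469217-22469317: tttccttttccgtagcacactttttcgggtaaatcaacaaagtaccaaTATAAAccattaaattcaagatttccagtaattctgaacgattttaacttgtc
comt, 143 bp from its start, chrX:13258828-13258928: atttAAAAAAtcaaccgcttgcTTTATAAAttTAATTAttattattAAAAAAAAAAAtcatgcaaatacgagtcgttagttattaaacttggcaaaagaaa
ChAT, intron, shared with VAChT, chr3R:18719920-18720020: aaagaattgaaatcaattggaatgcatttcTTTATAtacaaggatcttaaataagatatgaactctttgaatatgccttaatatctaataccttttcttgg
futsch, 322 bp from a start, below the threshold of the list, chrX:1411354-1411454: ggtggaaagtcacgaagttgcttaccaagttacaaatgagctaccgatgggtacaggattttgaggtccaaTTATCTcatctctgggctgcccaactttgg

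The windows at Pif1B peaks of these genes were AT-rich. Over the 8 member peaks the median GC content of the 101 bp windows was 27.2%, with values between 20.8% at comt and 41.6% at 1 of the Dscam1 peaks. Over all IDR peaks the median was 33.7%, with 80% of the peaks between the 10th percentile of 23.8% and the 90th of 49.5%. The futsch window, whose region fell below the list, had 46.5% GC. The letters TATAAA were found in 5 of the 8 windows, at Syx1A, comt, ChAT, Nrx-1 and 1 Dscam1 site, against 20.6% of all IDR windows. The run AAAAAA, also of A and T only, was in 2 of the 8, at comt and Dscam1, against 30.1% of all. GAGAG was in none of the 8 and in 16.5% of all. These matches are descriptions of AT-rich windows and not sites shown to be used.

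The share of synapse and neuronal function genes with a Pif1B peak was near that of all protein-coding genes. It was below that of genes of like length. An IDR peak was present at 7 of the 30 genes, or 23.3% (95% Clopper-Pearson interval 9.93 to 42.3), and these were Syn, Syx1A, Dscam1, Nrx-1, comt, ChAT and VAChT. The same rule called 29.8% of all protein-coding genes, a share inside that interval. Neuronal genes are long, with a median of 27.2 kb in the list against 2.17 kb for all protein-coding genes, and the share of genes with a peak was higher in longer genes, from 21.8% of all genes up to 5 kb to 67.7% of those over 80 kb. Among genes of like length, taken as the 200 protein-coding genes nearest in length to each member, 59.3% held a peak. The sets of 200 were joined, so a gene near several members in length counts more than once. Only the member itself was left out of its set, so other members can be in it. At that share 17.8 of 30 genes would be counted. No test of the list as a set was made, and all intervals cover counting error only. The count depended on the flank. With the gene span alone it was 4 genes (13.3%), against 49.7% of genes of like length and 13.5% of all protein-coding genes. With 5 kb on each side it was 13 genes (43.3%, interval 25.5 to 62.6), against 66.0% and 42.1%. When peaks within 1 kb of another gene's start were left out, an alternative chosen after the data had been seen, it was 2 genes (6.67%), against 49.4% and 15.8%.

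**Figure D1:**
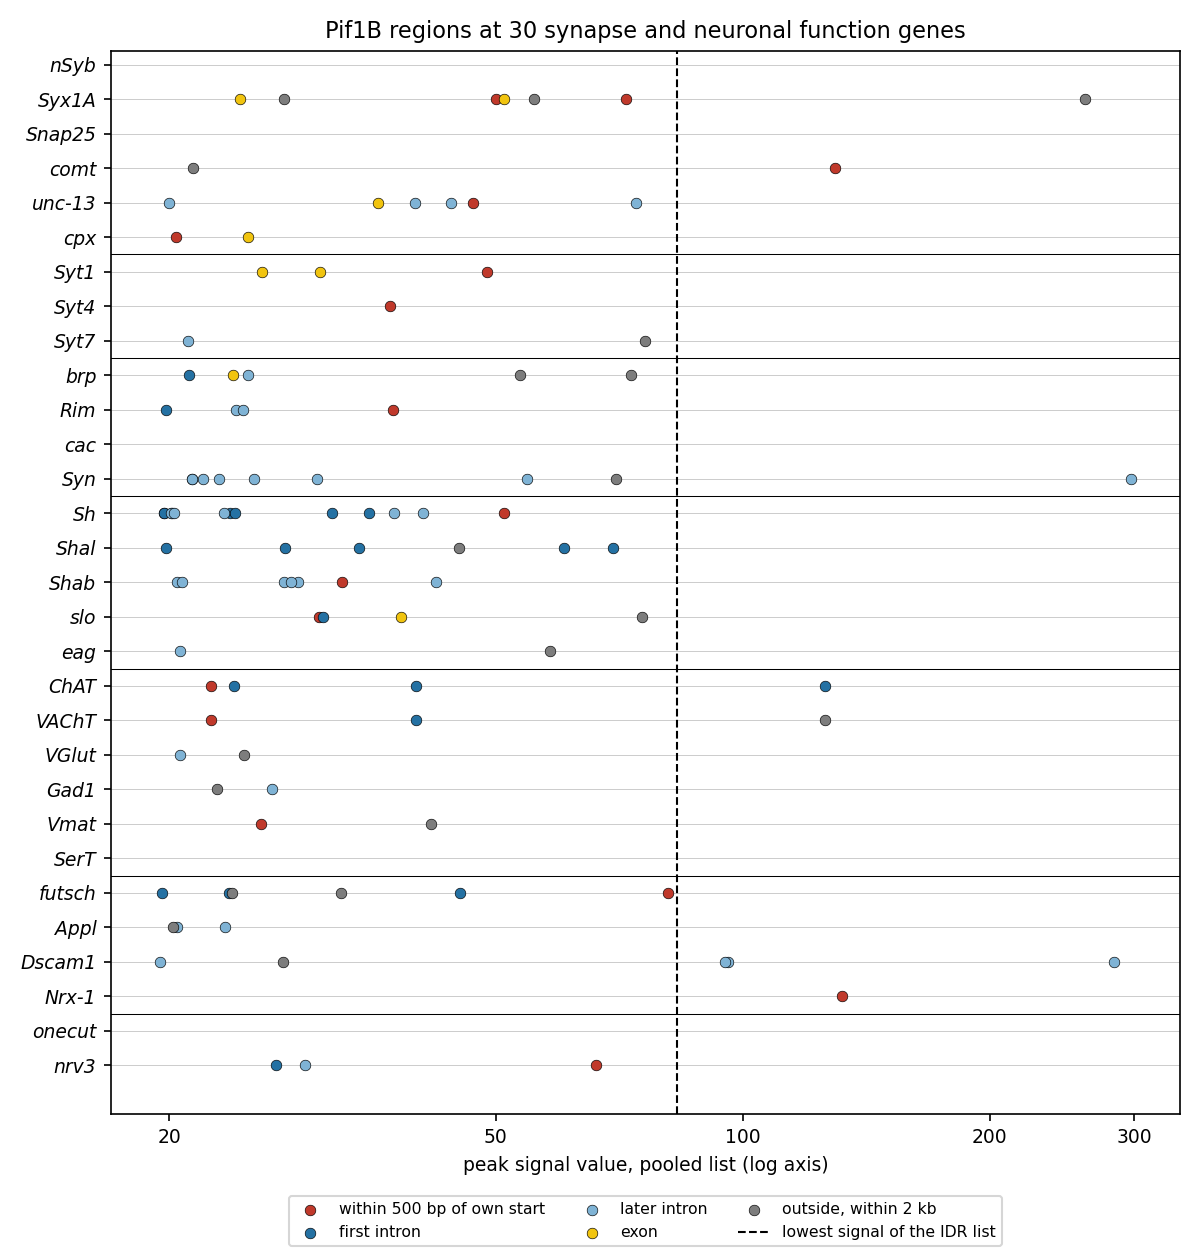
Signal value (log axis) of every pooled relaxed region in or within 2 kb of the 30 genes, 1 row per gene, with horizontal lines between functional groups, colours for the place of the summit and a dashed line at the lowest signal of the IDR list. The points of 7 genes lie right of the line, from 95.2 to 297, and 5 rows hold no point.

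Fewer of these genes had a peak at a start. Only comt and Nrx-1 met that rule, 2 of 30 genes or 6.67% (interval 0.818 to 22.1). The same call was made for 15.6% of all protein-coding genes and for 34.2% of genes of like length. The first share lies inside the interval and the second outside it. Of the 8 separate peaks at the 30 genes, 2 lay at a start, 5 in introns and 1 in flanking sequence. The share at a start was 25% (interval 3.19 to 65.1, n = 8), against 39.1% of the 5551 IDR peaks in or near protein-coding genes.

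Weaker regions were listed at most of the genes. A relaxed region was listed at 25 of the 30 genes, or 83.3% (interval 65.3 to 94.4), against 54.7% of all protein-coding genes and 88.5% of genes of like length. The 88.5% lies inside the interval. At a start the count was 16 of 30, or 53.3% (interval 34.3 to 71.7), against 33.5% of all and 66.9% of genes of like length. The genes held 101 separate relaxed regions, of which 8, or 7.92%, reached the IDR list (interval 3.48 to 15.0), against 21.4% of all pooled regions. The median signal of the 101 regions was 28.7, and that of the whole pooled list was 38.7. By place, the median was 46.9 over 17 regions at starts, 43.4 over 18 in flanking sequence, 28.2 over 8 in exons, 27.0 over 21 in first introns and 24.9 over 37 in later introns.

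The vesicle fusion machinery had 2 of 6 genes with a peak, where 52% of genes of like length had one. Syx1A, which encodes the plasma membrane SNARE syntaxin, had a peak with a signal value of 261 and rank 1119 of the IDR list (3R, 24106352 to 24106518). It ranked 1334, 924 and 1365 in replicates 1, 2 and 3, so all 3 replicates placed it among their strongest regions. Its summit lay 697 bp upstream of the only start of Syx1A, in an intron of the neighbouring gene eIF4EHP, a cap-binding protein, and 931 bp from the start of CG10694. Syx1A also held 6 weaker regions, of which the strongest, at 72.0, lay 303 bp from its start. Its 7 relaxed regions gave it the 98.0 percentile of relaxed density among genes of its length.

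The gene comt encodes the ATPase NSF, which takes apart SNARE complexes after fusion. Its peak had a signal value of 129.7 and rank 3505 (X, 13258663 to 13259092) and ranked 3513, 3463 and 4938 in replicates 1, 2 and 3. The summit lay 143 bp outside the gene and 383 bp from the start of CG15742, so the site is shared by a pair of starts. At 3.47 kb comt was the shortest gene of the list, and 25.5% of genes of its length held a peak.

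The other vesicle fusion genes fell below the list. The vesicle SNARE gene nSyb and Snap25, which encodes the other plasma membrane SNARE, had no pooled region at all. Snap25 spans 225 kb on 3L (24074180 to 24299205), and the nearest IDR summit was 1126 kb away. In single replicates nSyb had regions at rank 21567 in replicate 1 and 10651 in replicate 2, and Snap25 had 1 at rank 29654 in replicate 3. The vesicle priming gene unc-13 held 6 relaxed regions, led by one of 74.0 in an intron that lay 86 bp from the start of an antisense RNA gene, asRNA:CR44029. That region ranked 12458, 5741 and 9555 in replicates 1, 2 and 3. In replicate 3 another region of unc-13 ranked higher, at 5932. The complexin gene cpx, whose product clamps the SNARE complex, held 2 regions of at most 24.96.

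None of the 3 synaptotagmin genes had an IDR peak, against 57% of genes of like length. Syt1 encodes the calcium sensor of fast release, and its strongest region, with a signal value of 48.8, lay 399 bp from a start. That region ranked 5562 in replicate 1 and 24045 in replicate 3 and was not listed in replicate 2, so the replicates differed widely. Syt4, which encodes a synaptotagmin known for retrograde signalling at the fly neuromuscular junction, held 1 region of 37.2 at 132 bp from its start, which was also 230 bp from the start of Gld. The Syt7 region, at 76.0, lay 1670 bp upstream of its start and 58 bp from the start of Rad23. It ranked 7851, 19275 and 5168.

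Of the 4 genes of the active zone and vesicle pool, only Syn held a peak, where 65.6% of genes of like length did. Syn encodes synapsin, which tethers vesicles in the reserve pool, and its peak was the strongest of all 30 genes at 297, rank 897 (3R, 10213532 to 10213783). It ranked 750, 1195 and 1017 in the 3 replicates. The summit lay in an intron of 10655 bp, 22956 bp from the start of Syn, and 638 bp from the start of Timp, a metalloproteinase inhibitor gene nested in Syn. The active zone scaffold gene brp had 5 regions, with the strongest at 73.1 just past its end. Rim, another scaffold, had 4, with the strongest at 37.5 and 253 bp from its start. The calcium channel gene cac, 53.8 kb long, had no pooled region, although 98.0% of genes of its length had one. Only replicate 2 listed regions there, the best of them at rank 12033.

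The 5 potassium channel genes were long and had no IDR peak, against 65.5% of genes of like length. Sh spans 139 kb and held 13 relaxed regions, of which the strongest reached 51.2 at 342 bp from a start. Sh has 8 annotated starts, and that region ranked 9028, 10347 and 16977 in the 3 replicates. Shal, a fast-inactivating channel, reached 69.4 in its first intron, with ranks of 7386, 15145 and 8744 in the 3 replicates. In replicate 2 another region of Shal ranked higher, at 6786. Shab, a slow delayed rectifier, reached 42.3. The calcium-activated channel gene slo had its best region, 75.4, beyond its far end and 250 bp from the start of CG13627. That region ranked 4785 in replicate 3 but 8034 and 17800 in replicates 1 and 2. The eag region, at 58.2, lay outside the gene and 422 bp from the start of lncRNA:CR44831.

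Transmitter synthesis and transport genes had a peak at 1 locus of 5, where 56.2% of genes like the 6 in length had one. ChAT, the choline acetyltransferase of cholinergic neurons, and VAChT, the vesicular acetylcholine transporter, share a start and a first exon in a cholinergic locus. They counted as 2 of the 6 genes but shared 1 peak of 125.8, rank 3679 (3R, 18719755 to 18720184), ranking 4249, 4933 and 4126 in the replicates. It lay in the first intron of ChAT, 14469 bp from the start and 1.05 kb past the end of VAChT. It also lay in an exon of lncRNA:CR46265, 347 bp from that gene's start. VGlut, the vesicular glutamate transporter, reached 24.7, and Gad1, the glutamate decarboxylase that makes GABA, reached 26.7. Vmat, the vesicular monoamine transporter, reached 41.7 at 81 bp from the start of a tRNA gene. The serotonin transporter gene SerT had no pooled region, yet replicate 2 alone placed a region there at rank 4465.

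Surface and cytoskeleton genes held 4 of the 8 peaks, at 2 of 4 genes, where 63.7% of genes of like length had a peak. Dscam1, a neuronal surface receptor with many spliced forms, held 3 peaks in 1 intron of 8801 bp. Their signal values were 283 (rank 968), 95.8 (rank 5349) and 95.2 (rank 5397). The strongest lay 9353 bp from a start (2R, 7372474 to 7372608) and ranked 1770, 1021 and 732. The others lay 11426 and 10212 bp from a start. For the peak of 95.8, replicates 1, 2 and 3 gave ranks of 5471, 14925 and 4348. For the peak of 95.2 they gave 5270, 4281 and 10193. They were the only member peaks without support from all 3 replicates. Dscam1 thus had more peaks than any other gene of the list, while genes of its length held 3.77 on average.

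Nrx-1, the presynaptic adhesion protein neurexin, had a peak of 132 at rank 3410 (3R, 22469052 to 22469481), 86 bp from a start. It ranked 2938, 3453 and 4192 and was the only relaxed region of the gene. The gene futsch, which encodes a microtubule-associated protein of axons and terminals, came closest to the list without entering it. Its best region, at 81.2 and 322 bp from a start, ranked 10429 and 22492 in replicates 1 and 2 and 3816 in replicate 3. Appl, the fly relative of the amyloid precursor protein, reached 23.4. Neither of the 2 marker genes had a peak, against 56.2% of genes of like length. The gene onecut, a transcription factor of neurons, had no pooled region, and nrv3, a subunit of the sodium pump, reached 66.2 at 103 bp from a start. That region ranked 9831 in replicate 1 and 6066 in replicate 3 and was not listed in replicate 2.

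Near the threshold, the member peaks just inside the IDR list were those of Dscam1 at 95.2 and 95.8, and the regions just outside it were futsch at 81.2, Syt7 at 76.0, slo at 75.4, unc-13 at 74.0 and brp at 73.1. Among the 18 genes with a relaxed region but no peak, the best signal ranged from 23.4 to 81.2. In 7 of these 18 the best region lay within 500 bp of the start of another gene, and in 6 it lay at a start of the gene itself. Syt4 was counted in both. No such share over all protein-coding genes is given here, so neither count is read as a trait of these genes.

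**Figure D2:**
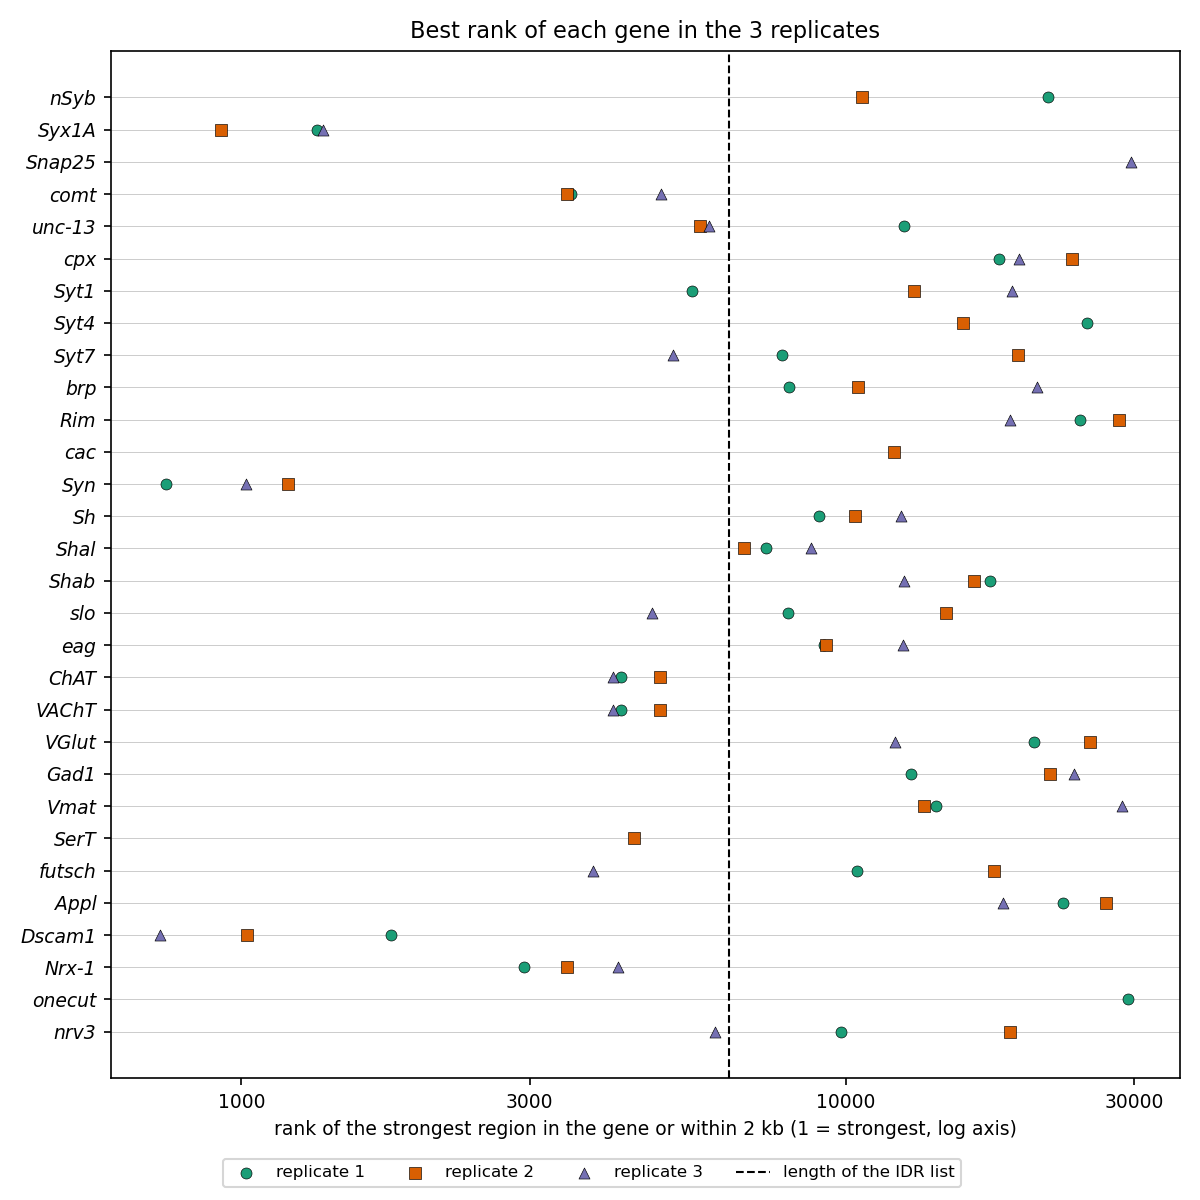
Rank (log axis, 1 is the strongest) of the best region in or within 2 kb of each gene in the list of replicate 1, 2 and 3, 1 row per gene, with a dashed line at rank 6410. All 3 points lie left of the line for 7 genes, and a missing point means that the replicate listed no region.

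The strongest peaks of these genes ranked high in all 3 replicates, and several weaker regions ranked high in only 1. The 6410 strongest regions of each replicate, as many as in the IDR list, reached 8, 9 and 12 of the 30 genes in replicates 1, 2 and 3 (9.67 ± 2.08, SD, n = 3). Over all protein-coding genes the shares were 31.0%, 34.1% and 30.6%, and over genes of like length the mean was 59.3% ± 0.301 (SD, n = 3). The share of the 30 genes was 32.2% ± 6.94 (SD, n = 3), and no replicate had more than 40.0%. The 7 genes with an IDR peak were the ones reached in all 3 replicates. A further 6 were reached in 1 replicate, unc-13 in 2, and 16 in none. The same split over all protein-coding genes is not given here, so it is not read as a trait of these genes. Of the 8 IDR peaks, 6 were among the 6410 strongest regions of every replicate, and 65.6% of all IDR peaks were. The IDR list was derived from these same libraries.

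Signal at member peaks was near the middle of the list. The median was 131 over the 8 peaks and 137 over all IDR peaks, whose quartiles were 104.0 and 212. The 2 peaks at starts had 129.7 and 132, and the 6 others had a median of 193. Over all protein-coding genes the medians were 142 at starts and 136 elsewhere. With 2 against 6 peaks, no order was read from these values. The median over the member peaks was 283 within the 3205 strongest IDR peaks, which reached 3 of the genes, and 224 with 5 kb flanks. Keeping only the stronger peaks raises any median, and the wider flanks add other peaks. No median of all peaks under these rules is given here, so no place in the list is read from them.

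Density was lowest inside the genes. The lengths of the 30 genes with their flanks sum to 1272 kb, where VAChT lies inside ChAT and both are counted. The 8 peaks were counted once for each gene they were assigned to, which gave 9 assignments. That is 0.707 per 100 kb, against 5.89 for genes of like length and 5.57 for all protein-coding genes. Relaxed regions, with 104 assignments of 101 regions, came at 8.18 per 100 kb, against 27.3 and 22.3. Counts per gene are skewed, so most genes lie below a mean. Of the 30 genes, 28 (93.3%) held fewer IDR peaks than the mean of their 200 genes of like length, 23 of them with none, against 60.5% of the genes of like length themselves. The percentile of density within those genes, with tied genes split evenly, had a median of 19.6 and ran from 14.8 for Sh to 80.2 for comt, with 4 genes at or above 50. A gene with no peak still takes part of the tied genes, so this percentile cannot be 0. For Snap25 the genes of like length ran from 63.9 to 709 kb, a wide range.

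**Figure D3:**
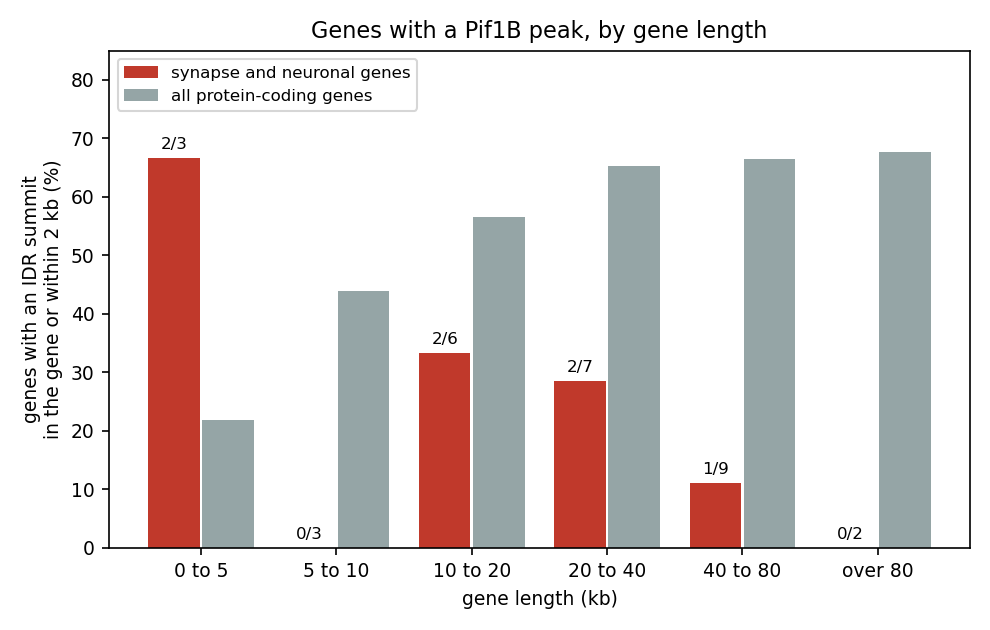
Percent of genes with an IDR summit in the gene or within 2 kb, by gene length in kb, for the synapse and neuronal genes (red, with the counts above the bars) and all protein-coding genes (grey). Peaks were found at 2 of 3 genes of up to 5 kb and at 1 of 9 of 40 to 80 kb, where 66.5% of all genes had one.

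Density was also counted apart in the bodies and in the flanks of the genes. In the gene bodies the 6410 strongest regions of each replicate came at 0.579 ± 0.100 per 100 kb, against 5.21 ± 0.146 for genes of like length (SD, n = 3 each). From 0 to 2 kb outside the genes the values were 4.17 ± 0.833 and 9.90 ± 0.677. From 2 to 5 kb outside they were 8.52 ± 1.16 for the 30 genes and 5.52 ± 0.0300 for genes of like length. In each zone the replicates of the 30 genes did not overlap those of the genes of like length. Over all protein-coding genes, replicates 1, 2 and 3 had 4.76, 4.51 and 4.67 in the bodies. They had 7.41, 8.42 and 7.17 from 0 to 2 kb, and 5.59, 5.79 and 5.38 from 2 to 5 kb. The IDR peak shared by ChAT and VAChT was counted in the body of ChAT and again among the 3 IDR peaks from 0 to 2 kb. All 3 replicates count the same genes, so this spread covers the assay and not the variation between genes, and no difference between gene groups was tested. The division into zones was chosen after the data had been seen.

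**Figure D4:**
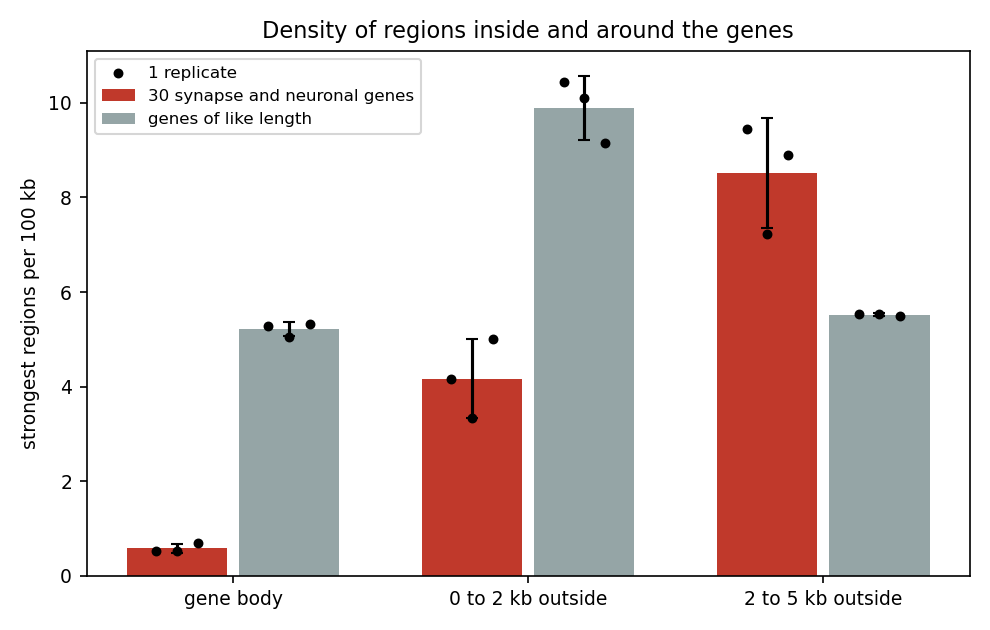
Number of the 6410 strongest regions of a replicate per 100 kb in gene bodies and in 2 flanking zones, for the 30 genes (red) and genes of like length (grey). Bars are means of the 3 replicates, whiskers SD and points single replicates. The red bar is lower in the bodies and from 0 to 2 kb, and higher from 2 to 5 kb.

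The outer zone held 15 IDR peaks beside 8 of the 30 genes, 6 of which had no peak of their own. Genes with a peak in this zone made up 26.7% of the 30, against 23.4% of genes of like length and 22.8% of all protein-coding genes. The higher density rested on few genes, since 9 of the 15 peaks lay beside Syt1, eag and Gad1. Of the 15 peaks, 8 (53.3%) were within 500 bp of the start of another gene, against 51.5% of such peaks for genes of like length and 55.6% for all genes. The other 7 lay 546 to 8180 bp from one. Beside Gad1, peaks of 297 and 224 lay 39 and 546 bp from the start of wit, which encodes a BMP type II receptor of the neuromuscular junction, and one of 477 lay 1103 bp from the start of CG32259. Beside eag, 3 peaks of 539, 360 and 242 lay 292, 325 and 555 bp from the start of pdgy. A peak of 318 beside Syt1 lay 44 bp from the start of colt, and one of 234 lay 500 bp from that of daw, an activin ligand. Weak peaks of 87.1 beside Appl and 87.8 beside onecut lay 41 and 303 bp from the starts of vnd and Eph, and 1 replicate supported each.

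Other neuronal genes were counted by the same rule, in lists also chosen with earlier results of these data known. In 6 further lists with 181 genes in all, 57 held an IDR peak. That is 31.5% (interval 24.8 to 38.8), against 29.8% of all protein-coding genes. At a start 32 held one, or 17.7%, against 15.6% of all protein-coding genes. The median length of the 181 genes was 14.5 kb. Among genes of like length, 39.5 to 63.4% held a peak, by list, and 22.2 to 36.5% held one at a start. Only the adhesion and surface list was above its genes of like length at a start, with 40% against 36.5%. The share with a peak differed between the lists. Transmitter receptor genes, with a median length of 19.4 kb, held a peak at 4 of 46 genes (8.70%, interval 2.42 to 20.8), against 54.0% of genes of like length. They were Nmdar1 (160.1), nAChRalpha6 (137), mAChR-A (122) and DopEcR (91.9), where the value in brackets is the signal of the strongest peak. The DopEcR peak had the support of 1 replicate. Neuronal adhesion and surface genes held a peak at 20 of 35 (57.1%, interval 39.4 to 73.7), against 63.4% of genes of like length. Ptp10D (493), fz2 (487), Sema1a (448) and Ten-a (372) led that list.

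Ion channel genes outside the 30 had a peak at 12 of 33, led by KCNQ (567), Best1 (469), Irk1 (408) and NaCP60E (351). Active zone genes had one at 7 of 15, led by Spn (451), CASK (328), Ca-beta (306) and dlg1 (187). Vesicle fusion and recycling genes had one at 10 of 33. Their strongest were Syx4 (398), Sytbeta (369), Syx6 (312) and Eps-15 (228), and the last 3 of these peaks lay 77, 230 and 40 bp from the start of another gene. Transmitter synthesis and transport genes had one at 4 of 19, all at starts and all of modest signal, at Pu (119.5), Tbh (116), Ddc (95.6) and Ace (87.9). The Pu peak was also 279 bp from the start of CG4286, and the Ddc peak had the support of 1 replicate. Genes of like length had shares of 52.4%, 58.7%, 43.3% and 39.5% for these 4 lists.

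Genes of a pair of other tissues of the pupa were set beside them. Glial genes held a peak at 7 of 14 (50%, interval 23.0 to 77.0), led by pnt (457), loco (393), moody (352) and wrapper (195), against 43.6% of genes of like length. The wrapper peak lay outside the gene, 125 bp from the start of CG13506. Muscle sarcomere genes held one at 7 of 34 (20.6%, interval 8.70 to 37.9), led by tmod (348), Zasp52 (331), Mlc2 (309) and sls (237), against 44.9%. The Mlc2 peak lay outside the gene, 364 bp from the start of Rsod. The difference between the 30 genes and these lists was not tested.

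**Figure D5:**
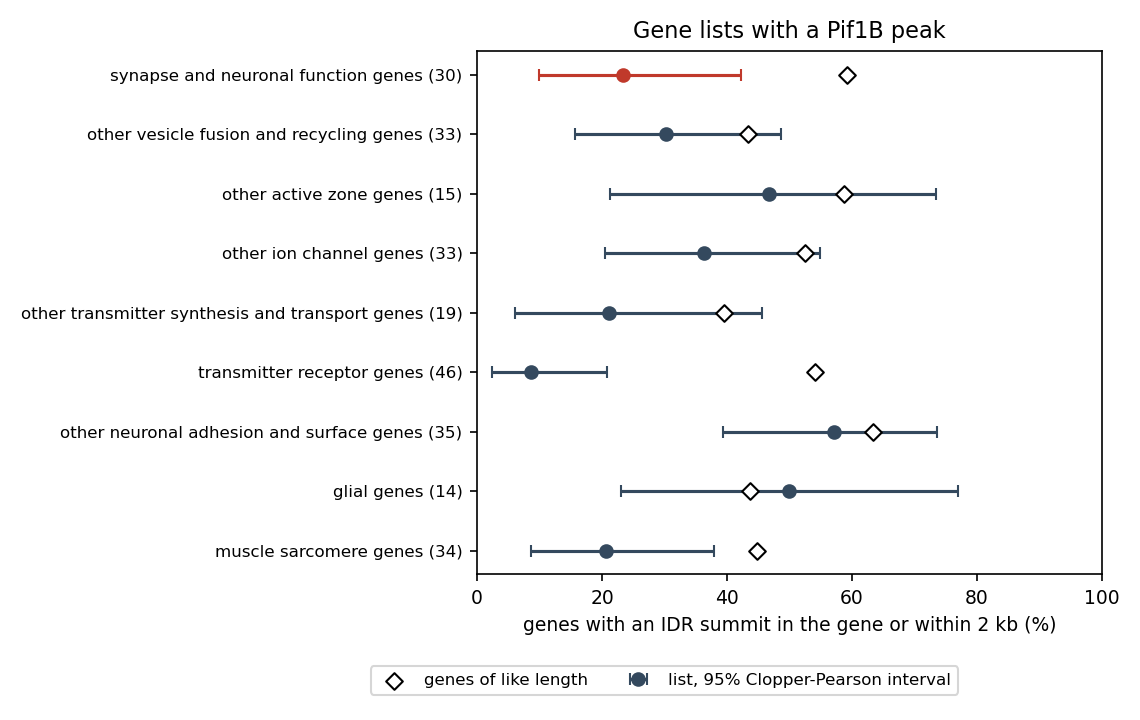
Percent of genes with an IDR summit in the gene or within 2 kb for the 30 synapse and neuronal function genes (red) and 8 other lists (dark), with 95% Clopper-Pearson intervals and the number of genes in brackets, and for genes of like length (diamonds). The point of the 30 genes is at 23.3% and its diamond at 59.3%, and transmitter receptors have the lowest point at 8.70%.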

How the data were processed

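ChIP-seq peak lists in the build dm6 were used, for 3 replicates, for the pooled replicates and after IDR thresholding. Per the deposited text files, each relaxed list came from the alignments and 1 further file common to all lists, which the text does not describe, and the authors deposited a signal value per region. A control experiment named in the labels was not analysed here. The sources used here do not give how reads were aligned, which program called peaks or what cutoff IDR had. The dm3 lists were not used. Depth is unknown. Summits were the interval start plus the deposited offset. Genes and starts came from Ensembl release 115 without transposable elements, and sequence from RefSeq.

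The software was Python 3.11.15, numpy 2.4.6, pandas 2.3.3, scipy 1.17.1 and matplotlib 3.10.9. A replicate supported a peak when at least 1 bp overlapped 1 of its 6410 strongest regions. The assignment was checked on simulated summits. Genes, lists and rules were chosen with earlier results of these data known. All 30 genes are named, and the 4 strongest of each further list. Of 241 entries of those lists, 7 matched no gene and 8 matched by a synonym. With 1 group there was no test between groups. Alternatives changed the flank, the distance to starts, the list, the overlap and the replicates.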

Additional observations from a re-analysis of the deposited data

How the results depend on the processing

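The count of 7 of 30 genes with a peak stayed at 7 when any overlap of the interval was enough. It was also 7 without any 1 replicate, where both others had to support a peak. That alternative only filters the same IDR list, and each of the 7 genes held a peak that all 3 replicates supported. The count of genes, and that at starts, therefore could not change there. The count of genes was 4 with the gene span alone, 13 with 5 kb on each side, 3 with the 3205 strongest IDR peaks and 25 with all relaxed regions. In alternatives added after the data were seen, it was 2 without peaks within 1 kb of the start of another gene and 6 with ChAT and VAChT as 1 locus. The count at starts was 2 without any 1 replicate and within 250 bp, 3 within 1000 bp, 0 with those 3205 and 16 with all relaxed regions. The share of member peaks at a start was 0% with those 3205, 8.70% with 5 kb, 16.7% with the gene span alone and 37.5% with starts within 1000 bp, and ranged from 28.6 to 33.3% without 1 replicate. Their median signal was 283 with those 3205, 224 with 5 kb, and from 132 to 197 without 1 replicate. The count of peaks with full support was 3 among the 3205 strongest and 16 with 5 kb on each side, where more peaks are counted. It was 6 or 7 when 1 replicate was left out. That count is fixed by the rule, since only peaks that both other replicates supported were kept. The median density percentile was 26.5 with those 3205, 25.1 with the gene span alone, 22.8 with 5 kb, and from 23.6 to 24.9 without 1 replicate. Per replicate, the mean was 3.33 genes with 3205 regions per replicate and 8.50 to 10.5 genes when 1 replicate was left out. The cause of the other changes was not tested. Depth is unknown, so the absence of a region says only that none was listed.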

Other observations

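The starts of the synapse and neuronal function genes were richer in GC than those of most genes. In windows from 250 bp before to 50 bp after the outermost start, the median GC content was 49.7% for the 30 genes, 43.2% for genes of like length and 37.9% for all protein-coding genes, and 26 of the 30 lay above the last value. The lowest value was 29.2% at comt, whose peak lies at this start, and the highest was 59.5% at futsch. For Nrx-1 the outermost start, at 35.2%, lies 755 bp from the peak, while the start 86 bp from the peak has 48.8%. When all genes were divided into 4 groups at the quartiles of this GC content, 22 of the 30 fell in the highest group. Of these 22, 3 held a peak, against 53.2% of genes of like length and 32.8% of all protein-coding genes in that group. ChAT and VAChT, which share a start window and a peak, were both among the 3 and were counted apart throughout. In the 3 other groups, in order of rising GC content, 1 of 1, 2 of 3 and 1 of 4 did. Genes of like length there had 51.5%, 61.1% and 72.9%, and all protein-coding genes 25.9%, 28.4% and 31.8%. The part of GC content in the count of peaks, which was low against genes of like length, was not tested.

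GAGAG, the core of the site of GAGA factor, was found in the start windows of 17 of the 30 genes, or 56.7%, against 44.6% of genes of like length and 29.8% of all. TATAAA was in 30%, against 32.3% and 45.9%, and runs of AAAAAA in 26.7%, against 45.7% and 50.6%. The DRE core was in 1 of the 30, at eag, against 8% of genes of like length and 9.37% of all. ChAT and VAChT share a start, so the GAGAG match in their window was counted for both. These shares were not corrected for base composition.

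All 3 genes on the small chromosome 4, unc-13, Syt7 and onecut, lacked a peak, while 28.7% of its 80 protein-coding genes held one. On 3R 5 of 9 held one, with ChAT and VAChT sharing 1 peak, against 29.8% of all protein-coding genes there. On the other arms 2 of 18 held one, 1 of 6 on X, 1 of 4 on 2R, 0 of 3 on 2L and 0 of 5 on 3L, against 34.2%, 26.9%, 27.7% and 31.4% of all genes.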
